A study of Arabidopsis thaliana with 18 samples.

Results

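Seedlings that lack functional CURLY LEAF (CLF) in the Arabidopsis thaliana accession Col were compared with clf mutant F1 hybrids of Col and C24, by the mRNA of their shoots. The comparison uses 6 of the series' 18 libraries, the 3 mRNA libraries of each of both groups, chosen by their labels. A nuclear gene entered the tests when it reached 1 RPKM (the authors' unit, reads scaled to gene length and library depth) in at least 3 of the 6 libraries, which 17195 of the 32713 nuclear genes did. The series is about a repressive chromatin mark, H3K27me3 (a histone H3 lysine carrying 3 methyl groups), in these accessions and their hybrid, and it also holds C24 clf mRNA and maps of the mark. The Col clf parent carries the T-DNA insertion SALK_139371 in CLF. The C24 clf parent carries a chemically induced G-to-A change at position 4196 that replaces an aspartate of the SET domain by asparagine. The clf F1 plants came from a cross of both mutants, so each carries 1 insertion allele and 1 point-mutation allele and no wild-type CLF allele. All were seedlings of 14 days, raised on Murashige and Skoog plates that held 1% sucrose, with 8 h of light at 22 °C and 16 h of dark at 18 °C, and shoots were sampled.

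Polycomb repressive complex 2 places H3K27me3 on the chromatin of genes that are to stay silent in a tissue, and CLF is its main methyltransferase in vegetative shoots, with SWINGER (SWN) as a partly redundant relative. Plants without CLF are known for ectopic expression of floral homeotic genes such as AGAMOUS in leaves and for small, curled leaves and early flowering. A hybrid carries 1 set of chromosomes from each parent, so a gene expressed from the alleles of a single parent is often seen at an intermediate level in the hybrid.

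Clf genotype and accession could not be separated here. All 6 libraries are from clf mutants, and the clf F1 group differs from Col clf both in a set of C24 chromosomes and in 1 of the CLF alleles, so these cannot be told apart. Reads were placed on TAIR10, the Col sequence, so less mRNA from a C24 allele and fewer placed reads because its sequence differs cannot be told apart either. Library depth, estimated from the value of 1 read in short genes, was 16.45, 20.4 and 22.1 M reads for Col clf replicates 1, 2 and 3, and 19.8, 22.05 and 19.9 M reads for clf F1. The ribosomal RNA gene AT3G41979 was listed at 6359, 17796 and 2148 RPKM in Col clf and at 1363, 14696 and 16022 RPKM in clf F1. Its level varied as widely within each group as between them. As a check of the tissue, the summed level of 37 nuclear photosynthesis genes was 145083 to 150656 RPKM in Col clf and 150730 to 154104 RPKM in clf F1, and 10 of 11 root markers lay under 1 RPKM in all 6 libraries. In bulk samples, fewer cells of a type and less RNA per cell cannot be told apart.

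CLF mRNA (AT2G23380, chromosome 2) was listed at 1.21, 0.99 and 1.37 RPKM in the 3 Col clf libraries and at 4.35, 3.93 and 4.08 RPKM in the 3 clf F1 libraries. The groups did not overlap, and the C24 clf libraries, whose allele is a point mutation, stood higher still at 7.2, 7.14 and 8.35 RPKM. The difference on the scale of log2(RPKM + 1), on which all log2 differences here are given as clf F1 minus Col clf, was 1.23 with a standard error (SE) of 0.108 (limma, Benjamini-Hochberg adjusted p = 3.5e-05, n = 3 and 3). SWN, the other vegetative H3K27 methyltransferase, was listed at 13.90, 14.39 and 13.81 RPKM in Col clf and at 18.56, 17.59 and 16.26 RPKM in clf F1. Its 1.24-fold higher level passed the threshold in limma (adjusted p = 0.043), but not when any 1 of 5 of the 6 libraries was left out. CLF and SWN were the only called members of 15 tested Polycomb genes, of 18 in the list, against 4.16% higher and 6.6% lower of all tested genes. The list median was -0.01 (0.05 after quantile normalization). EMF1 and VRN2, named after their values were seen, passed in other settings of limma. EMF1 was called higher after quantile normalization (adjusted p = 0.042) and median-of-ratios scaling, and VRN2 lower with the replicate number as a block (adjusted p = 0.033). VEL1 and VRN1, both of the vernalization branch of Polycomb repression, had log2 differences of -0.04 and 0.09. None of 9 trithorax and histone demethylase genes was called, where 4.16% of all tested genes were called higher and 6.6% lower. Among the 9 were the chromatin remodelers PKL (log2 difference -0.13, adjusted p = 0.38 in limma) and BRM (log2 difference -0.11, adjusted p = 0.53), and the list median was -0.04.

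Over all genes, 1851 of 17195 (10.8%) passed an adjusted p of 0.05 in limma, 716 higher (4.16%) and 1135 lower (6.6%) in clf F1. Of these, 146 (0.849%) were higher and 71 (0.413%) lower by at least 2-fold on the log2(RPKM + 1) scale, which understates the change of genes near 1 RPKM. The 3 clf F1 libraries lay wholly apart from the 3 Col clf libraries for 4718 genes (27.4%), above them for 1615 (9.39%) and below them for 3103 (18%). Over these 17195 genes the log2 differences had a median of -0.06, with 11135 genes below 0 and 6060 above. The split between directions depended on scaling, with 1050 higher (6.11%) and 1061 lower (6.17%) calls after quantile normalization and 1098 higher (6.39%) and 1010 lower (5.87%) calls after median-of-ratios scaling, 12.3% of genes in each. Same-numbered libraries of both groups deviated together from their group means, and with the replicate number as a block the calls came to 4099 (23.8%), of which 1425 (8.29%) were higher and 2674 (15.6%) lower. Without the 3 libraries richest in ribosomal RNA (Col clf 2, clf F1 2 and clf F1 3), where the C24 clf libraries help set the spread and 1 clf F1 library is left, 534 genes were called. Without Col clf replicate 3 alone, 1133 genes were called, and the decreases numbered 733, 617, 712 and 688 when Col clf replicate 1, Col clf replicate 3, clf F1 replicate 2 or clf F1 replicate 3 was left out. They numbered 1005 without Col clf replicate 2 and rose to 1521 without clf F1 replicate 1.

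**Figure D1:**
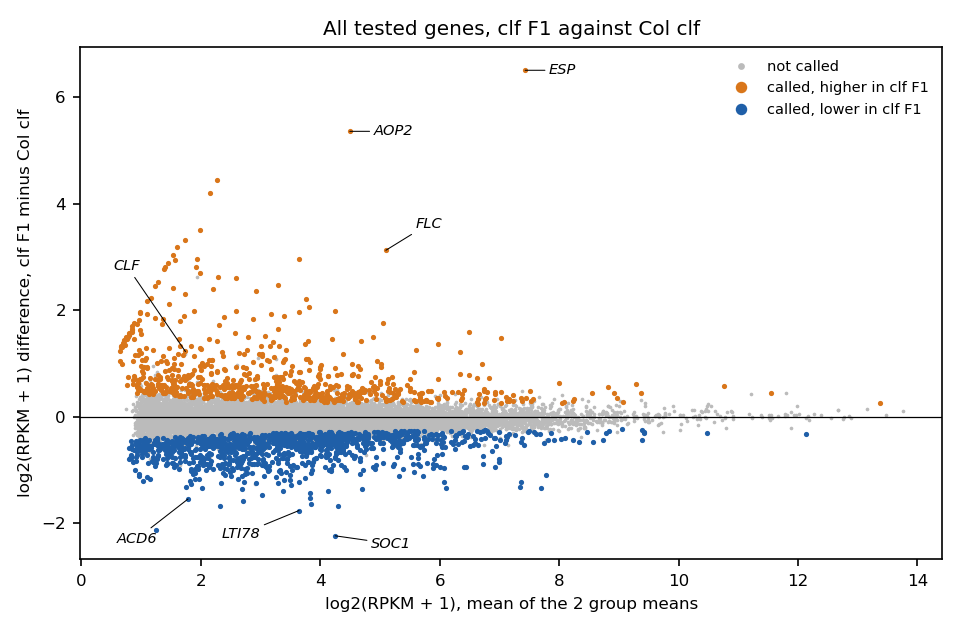
Each point is 1 of the 17195 tested genes. The x axis gives the mean of the Col clf and clf F1 group means of log2(RPKM + 1), the y axis the log2(RPKM + 1) difference, clf F1 minus Col clf, and called genes (limma, adjusted p below 0.05) are coloured by direction. ESP (6.51) and AOP2 (5.36) stand apart at the top, and the called decreases reach no further than SOC1 (-2.23).

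The 2 largest increases belonged to genes of glucosinolate chemistry. ESP, the epithiospecifier protein (AT1G54040, chromosome 1), diverts glucosinolate breakdown from isothiocyanates to nitriles and epithionitriles. It was listed at 17.99, 19.01 and 14.60 RPKM in Col clf and at 1664.72, 1631.06 and 1640.51 RPKM in clf F1. The clf F1 libraries were close to each other and 95.7-fold above Col clf in the mean, and the C24 clf libraries lay higher still, at 2593.71, 2596.83 and 2509.36 RPKM. The log2 difference was 6.51 (SE 0.0918, adjusted p = 1.4e-11 in limma). AOP2 (AT4G03060, chromosome 4), a dioxygenase gene that makes alkenyl glucosinolates and is annotated as a transcribed pseudogene in the Col reference, was listed at 2.69, 3.04 and 1.92 RPKM in Col clf and at 168.73, 141.28 and 124.00 RPKM in clf F1. This was 56.7-fold higher in clf F1, with a log2 difference of 5.36 (SE 0.136, adjusted p = 2.6e-09 in limma), and C24 clf was listed at 311.36 to 433.40 RPKM.

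Of 29 tested genes of glucosinolate synthesis, of 31 in the list, 7 were called higher, AOP2 itself among them, and 1 lower, at a median log2 difference of 0.24. Over all tested genes 4.16% were called higher and 6.6% lower, at a median of -0.06. IMS2, a methylthioalkylmalate synthase-like enzyme of side-chain elongation, was listed at 2.1, 1.58 and 1.53 RPKM in Col clf and at 10.17, 7.79 and 6.51 RPKM in clf F1, 4.7-fold higher (adjusted p = 3e-05 in limma). MYB76, a transcription factor of the aliphatic branch, went from 0.89 to 1.45 RPKM in Col clf to 2.01 to 3.81 RPKM in clf F1 (adjusted p = 0.0069). MAM1, the main chain-elongation synthase, stood at 184.50 to 220.63 RPKM in Col clf and at 286.19 to 348.46 RPKM in clf F1, 1.55-fold higher (adjusted p = 0.0012), and was named after its values were seen. The single decrease was CYP79B3, which starts the indole branch, at 20.88, 17.69 and 11.84 RPKM in Col clf and at 10.89, 7.73 and 7.39 RPKM in clf F1. Its adjusted p of 0.012 in limma was past the threshold, but it lost its call without clf F1 replicate 3. The leucine-type isomerase and dehydrogenase genes IIL1 and IMD1, which serve chain elongation, had log2 differences of 0.18 and 0.30 that did not pass (adjusted p = 0.3 and 0.2), and passed with the replicate block (adjusted p = 0.0088 and 0.00023). With that block 16 genes of the list were called higher and 4 lower. Without the 3 libraries richest in ribosomal RNA, and likewise with no filter on low values, 4 were called higher and 0 lower.

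Of 9 tested genes of glucosinolate breakdown, of 11 in the list, 5 were called higher, ESP itself among them, and 1 lower, at a median of 0.51. Over all tested genes 4.16% were called higher and 6.6% lower. The myrosinases TGG1 and TGG2, which release the aglycone from glucosinolates upon damage, were among the 5 called higher. TGG1 was listed at 1389.92, 1397.11 and 1452.68 RPKM in Col clf and at 2080.94, 2135.88 and 2122.26 RPKM in clf F1, 1.5-fold higher (adjusted p = 0.00012 in limma). TGG2 was 1.54-fold higher, at 492.56 to 523.98 RPKM in Col clf and 754.18 to 812.97 RPKM in clf F1 (adjusted p = 0.00014). The C24 clf mean of TGG2, 565.6 RPKM, lay below all 3 clf F1 libraries. The nitrile-specifier genes NSP4 and NSP1 were 1.83-fold and 1.43-fold higher, NSP1 being named after its values were seen (adjusted p = 0.00022 and 0.0021 in limma). PEN2, an atypical myrosinase of the immune branch that was also named after its values were seen, was listed at 49.64 to 55.48 RPKM in Col clf and 38.76 to 45.49 RPKM in clf F1 (adjusted p = 0.024), and lost its call when any 1 of 4 libraries was left out. The epithiospecifier modifier ESM1 was listed at 220.18, 249.55 and 215.38 RPKM in Col clf and at 213.71, 219.18 and 211.88 RPKM in clf F1 and did not pass (adjusted p = 0.55), while the C24 clf mean was 24.38 RPKM. NSP5 had a log2 difference of 0.38 (adjusted p = 0.25, and 4.4e-05 with the replicate block). Without the 3 libraries richest in ribosomal RNA, TGG2, NSP4 and PEN2 lost their calls, which left 3 genes called higher.

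FLOWERING LOCUS C (FLC, AT5G10140, chromosome 5), a MADS-box repressor of flowering that Polycomb silences during vernalization, was listed at 10.37, 11.33 and 10.08 RPKM in Col clf and at 107.53, 96.58 and 97.09 RPKM in clf F1. All clf F1 libraries lay above all Col clf libraries, 9.48-fold in the mean, with a log2 difference of 3.13 (SE 0.0815, adjusted p = 2.6e-09 in limma), and C24 clf was listed at 130.98, 143.54 and 145.72 RPKM. SOC1 (AT2G45660, listed as AGL20 in the reference), a floral integrator known to be repressed by FLC, had the largest decrease of all called genes whose libraries lay apart. It was listed at 40.52, 42.58 and 37.79 RPKM in Col clf and at 8.57, 7.06 and 7.78 RPKM in clf F1. This was 5.16-fold lower in clf F1, with a log2 difference of -2.23 (SE 0.0907, adjusted p = 9.5e-08 in limma), and the clf F1 mean of 7.80 RPKM lay below that of C24 clf, 9.28 RPKM. FT, the florigen gene that FLC also represses, was listed at 5.91, 3.83 and 3.96 RPKM in Col clf and at 2.41, 0.85 and 0.93 RPKM in clf F1. It was lower in every clf F1 library (adjusted p = 0.004 in limma), but not past the threshold without the 3 libraries richest in ribosomal RNA.

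Among 28 tested genes of flowering time, of 33 in the list, 4 were called higher and 8 lower, at a median of -0.13, against 4.16% and 6.6% of all tested genes. MAF1, an FLC relative, fell from 29.59, 29.10 and 31.27 RPKM in Col clf to 17.64, 17.79 and 15.78 RPKM in clf F1 (log2 difference -0.78, adjusted p = 0.00012 in limma). SVP, the MADS-box partner of FLC, which was named after its values were seen, fell from 48.69, 50.69 and 48.94 RPKM to 27.88, 30.63 and 28.62 RPKM (log2 difference -0.75, adjusted p = 8.4e-05). Thus the FLC group did not move as 1 block, since FLC itself and MAF4 (log2 difference 0.53, adjusted p = 0.013 in limma) were called higher while MAF1, MAF2 (-0.42) and MAF5 (-0.51) were called lower. MAF2, MAF4 and MAF5 were named after their values were seen, and MAF4 lost its call without Col clf replicate 3 or clf F1 replicate 2, and MAF5 without clf F1 replicate 3. Those genes are tandem copies in part, and reads shared between copies may be split by the counting. The floral repressor TEM2 had a log2 difference of -0.32 that passed with the replicate block (adjusted p = 0.00043) and not without it (adjusted p = 0.073), and FVE of the autonomous pathway had 0.07 (adjusted p = 0.67). After quantile normalization the list held 2 higher and 7 lower calls, and without the 3 libraries richest in ribosomal RNA 1 higher and 3 lower.

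**Figure D2:**
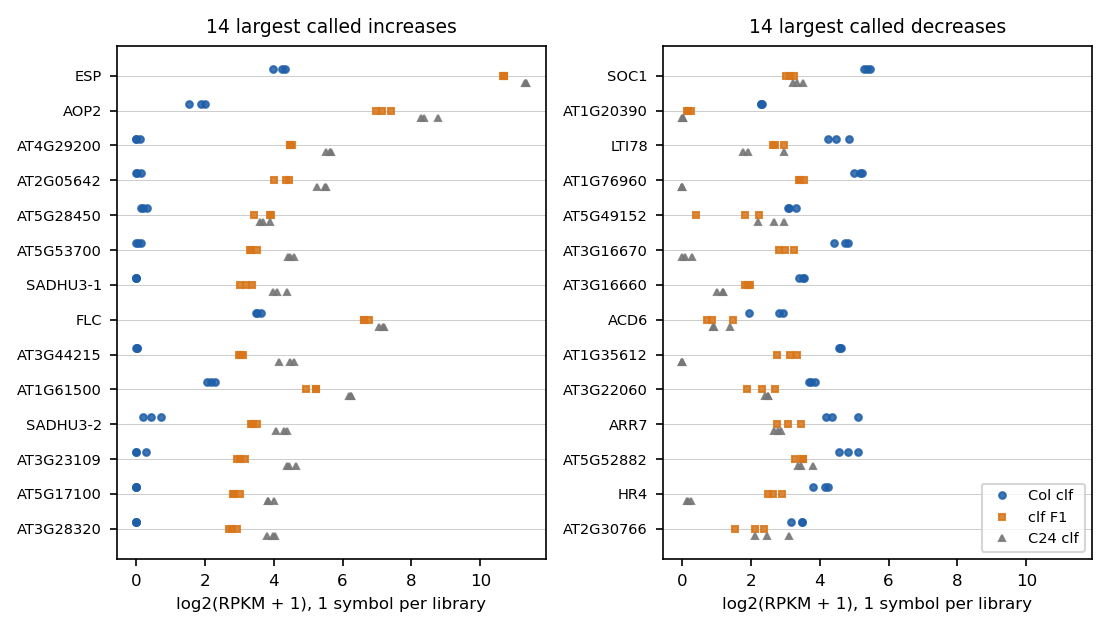
The 14 largest called increases (left) and decreases (right) among genes whose Col clf and clf F1 libraries lay apart, with log2(RPKM + 1) on the x axis and 1 symbol for each library (blue circles Col clf, orange squares clf F1, grey triangles C24 clf). The clf F1 symbols lie between both parents for 13 of the 14 increases by group means, and for 8 of the 14 decreases.

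The other genes with the largest increases included several whose Col clf libraries were at or near 0. SADHU3-1 (AT3G44042, chromosome 3), a copy of a family of short non-autonomous retroposons, was listed at 0 in the 3 Col clf libraries and at 9.42, 7.14 and 8.07 RPKM in clf F1. Its relative SADHU3-2 (AT3G42658) was listed at 0.34, 0.16 and 0.66 RPKM in Col clf and at 9.21, 9.60 and 10.36 RPKM in clf F1. Both reached 1 RPKM in clf F1 libraries alone and so entered the test through the group where they were high, and their levels are given as a description. The third member, SADHU1-1 (AT2G10410), went the other way, from 64.10, 62.81 and 73.51 RPKM to 35.09, 33.07 and 39.51 RPKM (adjusted p = 0.00012 in limma), and was listed at 0 in C24 clf. Such elements are near-identical copies in part, so the assignment of reads between copies is uncertain. AT4G29200, with no symbol in the reference, was listed at 0.09, 0 and 0 RPKM in Col clf and at 22.17, 21.29 and 21.30 RPKM in clf F1. AT2G05642 was listed at 0.10, 0 and 0.02 RPKM in Col clf and at 20.65, 19.39 and 15.10 RPKM in clf F1. AT4G29200 and AT2G05642 likewise reached 1 RPKM in clf F1 libraries alone, and their levels are given as a description. AT1G61500 was well detected in both groups, at 3.48, 3.86 and 3.14 RPKM in Col clf and 36.67, 36.73 and 29.42 RPKM in clf F1, 9.81-fold higher (adjusted p = 4.1e-08 in limma).

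AT5G28450 was the exception among the 14 increases, since its clf F1 mean lay at the level of C24 clf. It was listed at 0.11, 0.25 and 0.16 RPKM in Col clf, at 9.66, 13.84 and 14.11 RPKM in clf F1 and at 11.17, 13.69 and 12.01 RPKM in C24 clf. The clf F1 and C24 clf libraries overlapped. The rest of the 14 were AT5G53700, AT3G44215, AT3G23109, AT5G17100 and AT3G28320, with clf F1 means of 9.47, 7.29, 7.21, 6.41 and 6.04 RPKM, and all had Col clf libraries of at most 0.21 RPKM. These genes and AT5G28450 reached 1 RPKM in clf F1 libraries alone. They thus entered the test through the group where they were high, and their levels are given as a description.

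The 14 largest decreases were smaller in size, between -2.23 and -1.36. After SOC1 came the pseudogene AT1G20390, at 3.99, 3.92 and 3.92 RPKM in Col clf and 0.19, 0.11 and 0.12 RPKM in clf F1 (log2 difference -2.12). It reached 1 RPKM in Col clf libraries alone and so entered the test through the group where it was high, and its level is given as a description. It was 28.2-fold lower in clf F1 and near 0 in C24 clf, so the clf F1 level was far from the middle of both parents. AT1G76960 fell from 36.70, 35.27 and 30.71 RPKM to 9.85, 9.56 and 10.54 RPKM (adjusted p = 9.2e-07 in limma) and was listed at 0 in C24 clf. The neighbours AT3G16660 and AT3G16670 were 3.7-fold and 3.39-fold lower (adjusted p = 1.8e-06 and 2.4e-05). ARR7, a type-A response regulator that dampens cytokinin signalling, was listed at 33.55, 16.96 and 19.35 RPKM in Col clf and at 10.03, 7.51 and 5.81 RPKM in clf F1, so its Col clf replicate 1 stood above the rest of its group (adjusted p = 0.0021). AT3G22060 and AT5G52882 were 3.11-fold and 2.83-fold lower (adjusted p = 0.00027 and 5.3e-05), and the pseudogene AT1G35612 was 3.07-fold lower (adjusted p = 2.9e-05). The long non-coding RNA AT5G49152 ranged from 0.31 to 3.70 RPKM in clf F1 against 7.47 to 8.82 RPKM in Col clf, and its call (adjusted p = 0.011) was lost without Col clf replicate 3 (adjusted p = 0.054). AT2G30766, at 7.88 to 10.23 RPKM in Col clf and 1.93 to 4.22 RPKM in clf F1, passed with adjusted p = 0.00075, but not without the 3 libraries richest in ribosomal RNA (adjusted p = 0.14).

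Genes of salicylic acid signalling were lower where they were called. Salicylic acid is a hormone of defence against biotrophic pathogens, and its level and response are known to trade off with growth. Of 20 tested genes, of 31 in the list, 0 were called higher and 8 lower in limma at a median of -0.32, against 4.16% and 6.6% of all tested genes. ACD6, an ankyrin-repeat membrane protein that promotes salicylic acid accumulation, was listed at 2.82, 5.99 and 6.60 RPKM in Col clf and at 0.81, 1.77 and 0.64 RPKM in clf F1 (log2 difference -1.54, SE 0.255, adjusted p = 0.0027 in limma). WRKY70, a transcription factor downstream of the hormone, was listed at 7.39, 12.36 and 13.08 RPKM in Col clf and at 2.99, 6.39 and 3.1 RPKM in clf F1 (adjusted p = 0.0074). Libraries of the same group differed widely for both genes, yet the groups did not overlap, and WRKY70 lost its call without Col clf replicate 3. DMR6, which hydroxylates salicylic acid, fell from 7.58, 6.67 and 8.58 RPKM to 4.87, 3.74 and 3.13 RPKM (adjusted p = 0.0027 in limma), and its C24 clf mean was 22.43 RPKM, above both. The wall-associated kinase gene WAK1 fell from 6.92, 9.54 and 9.75 RPKM to 5.41, 5.16 and 5.29 RPKM (adjusted p = 0.007), again with C24 clf above both at 21.44 RPKM. The salicylic acid receptor gene NPR1, named after its values were seen, was 0.721 times its Col clf level (adjusted p = 0.0069). WAK2, at 12.64 to 17.22 RPKM in Col clf and 14.27 to 15.67 RPKM in clf F1, and SAG101, with a log2 difference of -0.06, did not pass (adjusted p = 0.99 and 0.81). All 8 calls were lost without the 3 libraries richest in ribosomal RNA, where the list held 1 higher and 0 lower calls, and with the replicate block it held 1 higher and 10 lower.

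Immune receptor genes were lower where they were called. Most of these genes encode intracellular receptors that detect pathogen effectors, and HR4 and RLM3 are resistance genes listed with them. Many of the genes lie in clusters that vary in sequence and copy number between accessions. Of 21 tested genes, of 25 in the list, 0 were called higher and 9 lower in limma at a median of -0.24, against 4.16% higher and 6.6% lower of all tested genes. Below 0 lay 19 of the 21, as did 11135 of the 17195 tested genes. HR4, a homologue of the mildew resistance gene RPW8, fell from 12.88, 17.94 and 16.78 RPKM in Col clf to 5.27, 6.41 and 4.65 RPKM in clf F1 (adjusted p = 7e-05 in limma), and C24 clf was listed at 0.10 to 0.20 RPKM. RLM3, a TIR-domain gene of resistance to Leptosphaeria maculans, fell from 100.80, 94.26 and 112.89 RPKM to 45.19, 40.28 and 43.84 RPKM (log2 difference -1.23, adjusted p = 8.4e-06 in limma) with a C24 clf mean of 4.99 RPKM. RPM1, which guards against bacterial effectors, fell from 4.34, 4.22 and 4.51 RPKM to 1.78, 1.56 and 1.41 RPKM (adjusted p = 6.7e-05) and was listed at 0 in C24 clf. RPP7, a downy mildew resistance gene, fell from 25.51, 20.93 and 27.08 RPKM to 14.64, 10.99 and 10.61 RPKM, 2.03-fold (adjusted p = 0.00067). The uncalled SNC1 was listed at 36.88 to 39.32 RPKM in Col clf and 39.18 to 50.74 RPKM in clf F1 (adjusted p = 0.19, and 0.016 with the replicate block). RPP4 had a log2 difference of -0.31 (adjusted p = 0.069, and 0.0038 with the replicate block). SNC1 was called higher after quantile normalization and after median-of-ratios scaling, and 5 of the 9 decreases stayed called without the 3 libraries richest in ribosomal RNA.

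In a list of cold, drought and heat response genes, the calls were decreases in cold and drought genes. The CBF transcription factors switch on a regulon of protective proteins in the cold, and the plants here had been grown without cold treatment by their labels. Of 21 tested genes, of 24 in the list, 0 were called higher and 8 lower in limma at a median of -0.30, against 4.16% and 6.6% of all tested genes. None of the 6 heat genes of the list (HSP101, HSP17.6II, HSP18.2, HSFA2, HSP70 and HSP90.1) was called without the replicate block. Their log2 differences ran from -0.40 to 0.50 and their adjusted p from 0.26 to 0.93 in limma. LTI78, also called RD29A, was listed at 21.40, 27.60 and 17.95 RPKM in Col clf and at 5.27, 6.71 and 5.50 RPKM in clf F1, 3.83-fold lower (adjusted p = 2.4e-05 in limma). KIN2 fell from 314.27, 377.94 and 304.69 RPKM to 120.64, 132.06 and 137.95 RPKM (log2 difference -1.34, adjusted p = 7.7e-06 in limma), and COR15A from 160.60, 180.87 and 162.08 RPKM to 90.66, 97.59 and 100.94 RPKM (adjusted p = 7.4e-05). All 3 genes stood apart between the groups, with Col clf replicate 2 the highest of the 6 libraries for each. KIN1, a close copy of KIN2, fell from 3.99, 8.22 and 4.93 RPKM to 2.29, 2.88 and 1.82 RPKM (adjusted p = 0.0098), and reads may be shared between them. The regulators CBF3 and CBF2, named after their values were seen, lay at 1.22 to 1.94 RPKM in Col clf and at 0.29 to 0.61 RPKM in clf F1. Both, among the 8 called lower, reached 1 RPKM in Col clf libraries alone and so entered the test through the group where they were high. Their levels are given as a description. COR413PM1 was listed at 223.38 to 244.84 RPKM in Col clf and 225.60 to 246.95 RPKM in clf F1 (log2 difference 0.01, adjusted p = 0.94), and COR15B had a log2 difference of -0.30 (adjusted p = 0.25, and 0.00042 with the replicate block). With that block 3 genes of the list were called higher and 11 lower, and 5 lower calls held without the 3 libraries richest in ribosomal RNA.

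Floral homeotic genes, the classical targets of CLF, were higher in clf F1 where they were called. Of 9 tested genes, of 16 in the list, 5 were called higher and 0 lower in limma at a median of 0.49, against 4.16% and 6.6% of all tested genes. SHP1, SHP2, SEP4 and AGL17 did not pass. The 7 members not tested, AP1, FUL and LFY among them, lay under 1 RPKM in the mean of either group. Of the 9, 3 (AP3, STK and SHP1) reached 1 RPKM in clf F1 libraries alone and so entered the test through the group where they were high. AP3 and STK are among the 5 calls, and all 3 enter the median of 0.49. The levels of these 3 are given as a description. With no filter on low values 16 were tested, 6 called higher and 0 lower, at a median of 0.29. SEP3, a cofactor of all floral organ identities, was listed at 47.76, 47.21 and 61.47 RPKM in Col clf and at 129.00, 108.27 and 130.33 RPKM in clf F1, 2.35-fold higher (log2 difference 1.22, adjusted p = 4.8e-05 in limma). AGAMOUS (AG), the stamen and carpel gene, named after its values were seen, was listed at 24.31, 21.96 and 26.87 RPKM in Col clf and at 36.65, 33.53 and 33.69 RPKM in clf F1 (adjusted p = 0.0049). Both genes were thus detected in the shoots of either mutant, with every clf F1 library above every Col clf library. The petal and stamen genes AP3 and PI lay at 0.30 to 0.53 RPKM and 1.39 to 2 RPKM in Col clf and at 1.18 to 1.6 RPKM and 2.94 to 3.69 RPKM in clf F1 (adjusted p = 0.0047 in limma for PI). STK, an ovule gene, lay at 0.24 to 0.47 RPKM in Col clf and 1.14 to 1.28 RPKM in clf F1. SEP4 and SHP2 had log2 differences of 0.19 and 0.37 that did not pass (adjusted p = 0.28 and 0.054), and SHP2 passed with the replicate block (adjusted p = 0.009). SHP1 crossed the threshold with that block as well, with which 7 genes of the list were called higher and 0 lower. Without the 3 libraries richest in ribosomal RNA, SEP3 alone of the list was called.

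The meristem gene STM, another known Polycomb target, was listed at 2.23, 2.37 and 2.78 RPKM in Col clf and at 3.65, 4.45 and 3.84 RPKM in clf F1 (log2 difference 0.53, adjusted p = 0.01 in limma). It was the single call among 5 tested genes of 11 in the meristem list, at a median of 0.25, against 4.16% higher and 6.6% lower of all tested genes. STM lost its call without clf F1 replicate 2. AS1 and KNAT1 had log2 differences of 0.25 and 0.31 (adjusted p = 0.07 and 0.13) and passed with the replicate block (adjusted p = 0.011 and 0.047), with which 3 genes were called higher.

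Seed genes differed between the clf F1 libraries themselves. Of 8 tested genes, of 20 in the list, 4 were called higher and 1 lower in limma, against 4.16% and 6.6% of all tested genes. Of the 8, 2 (ICL and AGL38), both among the 4 called higher, reached 1 RPKM in clf F1 libraries alone. They so entered the test through the group where they were high, and their levels are given as a description. The storage protein gene CRA1 was listed at 1.23, 2.04 and 0.10 RPKM in Col clf and at 26.89, 2.04 and 19.96 RPKM in clf F1 (adjusted p = 0.029, lost when any of Col clf replicate 3, clf F1 replicate 1 and clf F1 replicate 3 was left out). Its clf F1 replicate 2 thus equalled the highest Col clf library. M17, an embryo-abundant protein gene, was listed at 0.20, 1.98 and 0.05 RPKM in Col clf and at 18.70, 2.63 and 13.68 RPKM in clf F1 (adjusted p = 0.0089 in limma), again with clf F1 replicate 2 close to Col clf replicate 2. It lost its call without Col clf replicate 3. ICL, isocitrate lyase of the glyoxylate cycle, was listed at 0.53, 0.66 and 0.08 RPKM in Col clf and at 4.72, 1.94 and 5.03 RPKM in clf F1. AGL38, a MADS-box gene of the seed, was listed at 0.22, 0.40 and 0.16 RPKM in Col clf and at 5.83, 6.97 and 4.59 RPKM in clf F1 (log2 difference 2.42). The storage protein gene CRU3 was listed at 25.33, 0.76 and 17.34 RPKM in clf F1 against 0.23 to 1.35 RPKM in Col clf and did not pass (adjusted p = 0.055, and 0.00055 with the replicate block). The dormancy gene DOG1, named after its values were seen, fell from 4.18, 4.29 and 4.25 RPKM to 2.79, 2.34 and 2.63 RPKM (adjusted p = 0.004), a call lost without the 3 libraries richest in ribosomal RNA. WRI1, a regulator of seed oil, had a log2 difference of 0.12 (adjusted p = 0.69). The summed level of the list was 105.1, 23.5 and 74.2 RPKM in clf F1 and 11.7 to 17 RPKM in Col clf, and the part of remaining seed RNA in this was not tested. With no filter on low values 17 were tested, with 2 called higher and 1 lower at a median of 0.33.

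**Figure D3:**
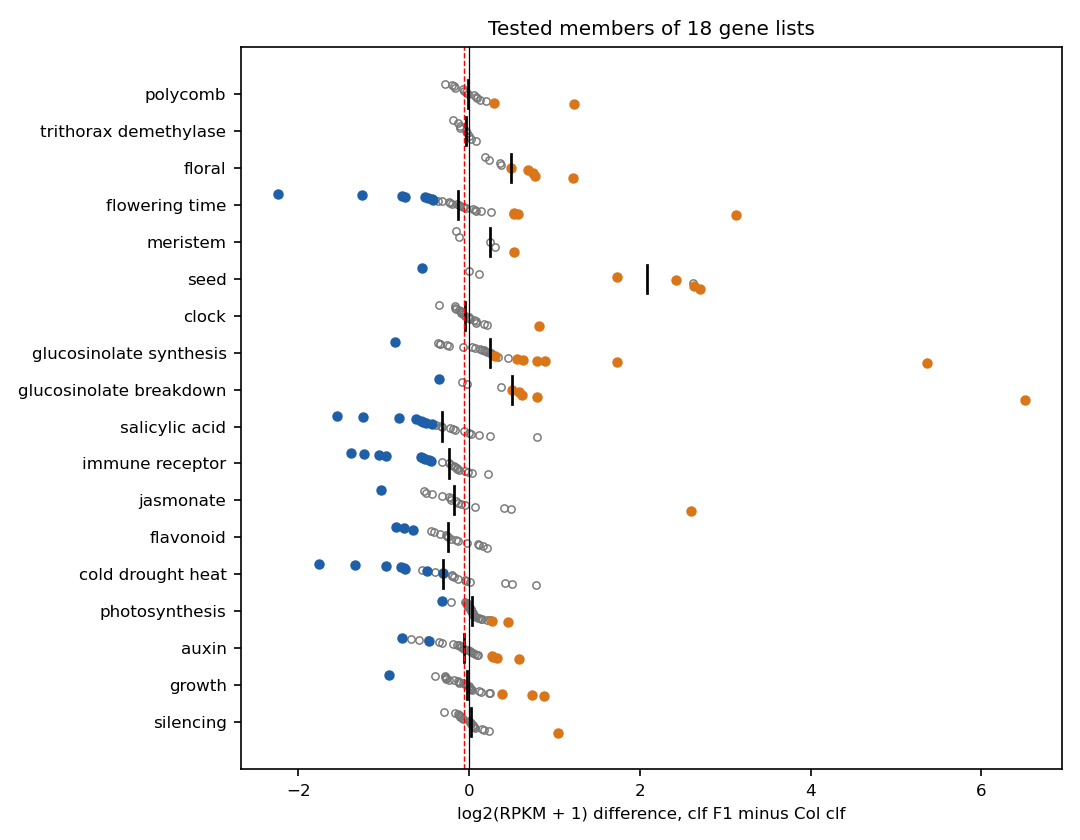
log2(RPKM + 1) difference (clf F1 minus Col clf, x axis) of each tested member of 18 gene lists (y axis). Filled symbols are called genes (orange higher, blue lower), open symbols are not called, black bars are list medians, and the dashed red line is the median of all tested genes (-0.06). Called salicylic acid, immune receptor and cold genes lie to the left of 0, and called floral genes to the right.

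Other stress and hormone lists were split or little changed. In the jasmonate list, 1 of 16 tested genes, of 19, was called higher and 1 lower, against 4.16% and 6.6% of all tested genes. HPL1, the hydroperoxide lyase that makes leaf aldehydes, rose from 1.61, 1.2 and 1.5 RPKM to 18.51, 12.17 and 11.56 RPKM, 9.8-fold (adjusted p = 2e-06 in limma), with a C24 clf mean of 64.01 RPKM. ARGAH2, an arginase gene induced by jasmonate, fell from 91.51, 64.09 and 51.68 RPKM to 46.94, 27.75 and 26.02 RPKM (adjusted p = 0.014) and was listed at 0 in C24 clf. Its call was lost without clf F1 replicate 3 and without the 3 libraries richest in ribosomal RNA. In both groups replicate 1 was the highest library for ARGAH2, as it was for LOX2 and AOC2, which make jasmonate precursors. LOX2 and AOC2 had log2 differences of 0.49 and -0.53 that did not pass (adjusted p = 0.25 and 0.23) and passed with the replicate block (adjusted p = 5.9e-07 and 1.1e-07), with which 3 genes of the list were called higher and 8 lower.

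In the flavonoid list, 0 of 17 tested genes, of 24, were called higher and 3 lower in limma, at a median of -0.24, against 4.16% and 6.6% of all tested genes. TT7, flavonoid 3'-hydroxylase and 1 of the 3 called lower, fell from 2.25, 1.71 and 1.80 RPKM to 0.77, 0.57 and 0.49 RPKM. It reached 1 RPKM in Col clf libraries alone and so entered the test through the group where it was high, and its level is given as a description. DFR, which makes leucoanthocyanidins, fell from 20.39, 18.79 and 17.55 RPKM to 14.10, 8.56 and 10.10 RPKM (adjusted p = 0.0062 in limma). TT4, chalcone synthase, was 0.632 times its Col clf level (adjusted p = 0.022) and lost its call when any 1 of 4 libraries was left out. The repressor gene MYBL2 had a log2 difference of -0.21 (adjusted p = 0.077, and 0.0043 with the replicate block), and C4H had 0.10 (adjusted p = 0.56). With the block 8 genes were called lower, and without the 3 libraries richest in ribosomal RNA 0 were.

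In the auxin list, 4 of 26 tested genes, of 34, were called higher and 2 lower, at a median of -0.06, against 4.16% and 6.6% of all tested genes. TAA1, the tryptophan aminotransferase that starts auxin synthesis, fell from 7.05, 6.86 and 8.81 RPKM to 3.63, 3.65 and 4.67 RPKM (log2 difference -0.78, adjusted p = 0.0017 in limma). YUC2, of the step that follows, was 0.56 times its Col clf level (adjusted p = 0.036), and its call was lost when any 1 of 3 libraries was left out. The efflux carrier gene PIN3 rose from 42.66 to 45.37 RPKM in Col clf to 53.79 to 58.46 RPKM in clf F1 (adjusted p = 0.015), and GH3.3, an auxin-conjugating enzyme gene, was 1.66-fold higher (adjusted p = 0.032). Leaving out 1 library took away the call of PIN3 in 2 of 6 cases and that of GH3.3 in 4 of 6. IAA7 and GH3.6 had log2 differences of 0.07 and 0.11 (adjusted p = 0.66 and 0.52). With the replicate block 4 genes were called higher and 7 lower, and without the 3 libraries richest in ribosomal RNA 0 higher and 2 lower.

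Of 28 cell wall and growth genes, all tested, 3 were called higher and 1 lower, at a median of -0.02, against 4.16% and 6.6% of all tested genes. The expansin gene EXPA1 fell from 91.41, 79.88 and 92.41 RPKM to 46.45, 43.30 and 46.61 RPKM (log2 difference -0.93, adjusted p = 3.3e-05 in limma). XTH24, a xyloglucan endotransglucosylase gene, rose from 84.50, 86.41 and 89.31 RPKM to 160.58, 110.81 and 170.49 RPKM (adjusted p = 0.0051), with clf F1 replicate 2 lower than the rest of its group. XTH33 was 2.26-fold and EXPA8 1.31-fold higher (adjusted p = 0.0006 and 0.016 in limma), and EXPA8 lost its call when Col clf replicate 3 or clf F1 replicate 2 was left out. XTH4 and XTH9 had log2 differences of 0.02 and 0.04 (adjusted p = 0.97 and 0.92). With the replicate block 5 genes were called higher and 6 lower, and without the 3 libraries richest in ribosomal RNA 1 higher and 1 lower.

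The clock and photosynthesis lists had small median differences. Of 19 clock genes, all tested, PRR3 alone was called, against 4.16% higher and 6.6% lower of all tested genes, at a list median of -0.05. PRR3 stood at 1.94, 2.96 and 2.28 RPKM in Col clf and 4.24, 5.68 and 5.03 RPKM in clf F1 (adjusted p = 0.0024 in limma). PRR7 and LNK2 had log2 differences of -0.07 and 0.08 (adjusted p = 0.61 and 0.66). Of 36 tested photosynthesis genes, 2 were called higher and 1 lower, against 4.16% and 6.6% of all tested genes. The list median was 0.03 and became -0.01 after quantile normalization. The Rubisco small subunit gene RBCS2B rose from 2617.64, 2651.19 and 2374.83 RPKM to 3642.08, 3580.11 and 3230.94 RPKM (adjusted p = 0.0024 in limma). LHCA3, of the antenna of photosystem I, was 0.804 times and LHCB1.2, of photosystem II, 1.2 times its Col clf level (adjusted p = 0.0089 and 0.017). Leaving out Col clf replicate 3 took away the calls of LHCA3 and LHCB1.2, median-of-ratios scaling that of LHCA3 and quantile normalization that of LHCB1.2. Without the 3 libraries richest in ribosomal RNA no member of the clock or photosynthesis list was called, and with the replicate block 7 photosynthesis genes were called higher and 2 lower, and 1 clock gene higher and 2 lower. RBCS1A and LHCB1.1 had log2 differences of 0.11 and 0.15 (adjusted p = 0.36 and 0.13) and passed with the replicate block (adjusted p = 0.016 and 0.0015). Small subunit and LHCB1 genes are close copies, and LHCB1.3 was listed at 0 in all 6 libraries, so their split between copies is uncertain.

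In the RNA silencing list, SGS3 was the single call of 20 tested genes, of 21, against 4.16% higher and 6.6% lower of all tested genes. SGS3 works with RDR6 in making double-stranded RNA for secondary small RNAs. It was listed at 8.79, 8.57 and 9.49 RPKM in Col clf and at 19.12, 19.88 and 19.32 RPKM in clf F1, 2.17-fold higher (log2 difference 1.04, SE 0.0804, adjusted p = 1.7e-05 in limma). The clf F1 libraries lay within 1 RPKM of each other, and the C24 clf mean was 35.14 RPKM. AGO1, the main effector of microRNA silencing, had a log2 difference of 0.05 (adjusted p = 0.72), and AGO10 had 0.24 (adjusted p = 0.08, and 0.016 with the replicate block). The only root marker that was tested, PYK10, a myrosinase-like beta-glucosidase of the ER body that seedling shoots also express, rose from 106.64, 105.71 and 94.18 RPKM to 147.90, 145.16 and 130.39 RPKM (adjusted p = 0.0038).

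A description of genes that 1 parent lacked was added after the data had been seen. There were 47 genes listed at 0 in all 3 C24 clf libraries and at 5 RPKM or more in all 3 Col clf libraries. All 47 were called lower in clf F1, against 6.83% of the 11989 tested genes at that Col clf level. Their ratio of the clf F1 mean to the Col clf mean had a median of 0.487 and ran from 0.292 to 0.578, while the median of the 11989 was 0.955. The non-coding RNA AT1G25098 was the most abundant, at 319.8 RPKM in Col clf and 149.9 RPKM in clf F1, and the protein-coding AT4G34881 stood at 73.95 and 40.13 RPKM. AT1G76960, at 0.292, had the lowest ratio of the 47. In the other direction, 19 genes were listed at 0 in all Col clf libraries and above 0 in all clf F1 libraries with a mean of at least 1 RPKM. Their clf F1 means ran from 1.03 to 8.21 RPKM, and the C24 clf mean exceeded the clf F1 mean for all 19. A gene that is missing from C24, one that is silent there and one whose C24 reads are not placed on the Col sequence cannot be told apart in these files.

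**Figure D4:**
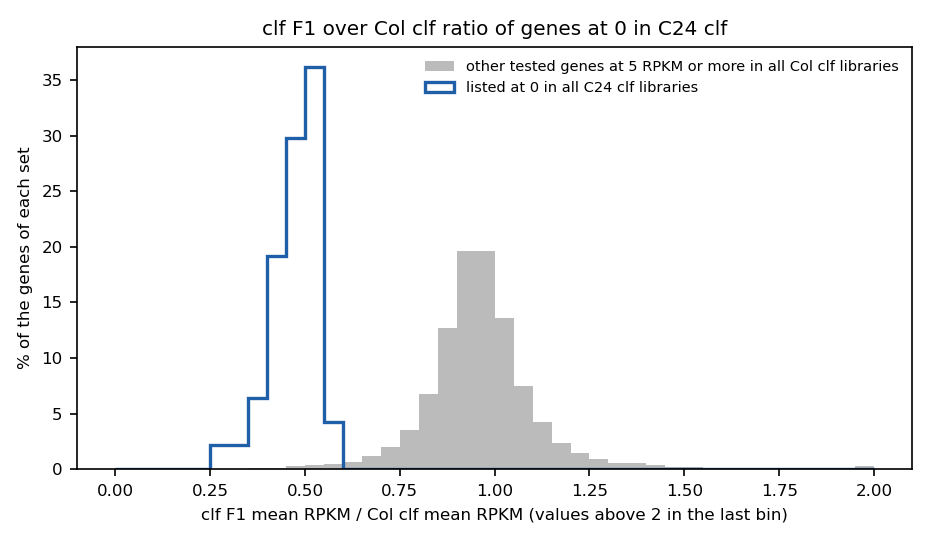
Ratio of the clf F1 mean to the Col clf mean RPKM (x axis, bins of 0.05) as a percentage of genes (y axis) for 47 genes listed at 0 in all C24 clf libraries (blue outline) and for the other tested genes at 5 RPKM or more in all Col clf libraries (grey). The 47 genes lie between 0.292 and 0.578, around a median of 0.487, and the grey bars around 0.955.

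Called genes were spread evenly over chromosomes, with 10.2% to 11.7% of tested genes called on each of the 5, but not over kinds of gene. Of 71 tested pseudogenes 16.9% were called higher and 40.8% lower, and of 58 transcribed pseudogenes 19% and 22.4%. Some of these, such as AT3G44215, AT3G23109 and AT1G20390, reached the filter level only in the group where they were high. They entered the test through that group, which favours a call. How many such genes each kind holds was not counted, so the shares by kind are given as a description. Protein-coding genes, 16791 of those tested, were called higher in 4.03% and lower in 6.28%. Among long non-coding RNAs (129 tested) the shares were 6.98% and 14%.

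Called-lower genes often lay next to each other, and the genes named here for their position were chosen after their values were seen. Of 1132 called-lower genes matched to the reference, 329 (29.1%) had a called-lower neighbour among tested genes, where 12.5% of all tested genes did, and for 715 called-higher genes this was 14.3% against 8.11%. Runs of 3 or more adjacent called genes numbered 21, and all of them were runs of lower genes. The longest held 9 genes, AT1G58590 to AT1G59359, in the cluster of RPP7, with a mean log2 difference of -0.77. A run of 7 genes from AT1G24793 to AT1G25175, which holds LpxC1, LpxC2, LpxC3 and LpxC4 of lipid A synthesis, had a mean of -0.86. Runs of 7 and 4 genes between AT5G50520 and AT5G50680 held SPL13A and SPL13B, copies of a transcription factor gene of the SPL family, and had means of -0.54 and -0.61. The largest mean, -1.29, was that of AT3G16660, AT3G16670 and the vacuolar sugar transporter gene SWEET16. Genes of these runs are in part near-identical duplicates, overlapping genes may share reads, and such neighbours are not independent.

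The deposited H3K27me3 peaks allow the mRNA calls to be set beside the mark. With 1 library each of Col clf and clf F1 there is no test between them. A peak overlapped, by at least 1 base, 26.9% of the 715 called-higher genes in the Col clf library and 27.1% in the clf F1 library. For the 1132 called-lower genes these shares were 17.2% and 19.3%, and for the 15300 genes not called 10% and 10.9%. Both called groups thus carried the mark more often than uncalled genes in either library, a description with no test. A peak in the Col clf library alone was found on 2.52% of higher, 1.5% of lower and 0.817% of uncalled genes, and in the clf F1 library alone on 2.8%, 3.53% and 1.73%. The lists held 5963 peaks in Col clf and 6324 in clf F1, which covered 12.09 and 12.53 Mb of the nuclear chromosomes. The wild-type lists were less alike, with 4851 and 2898 peaks over 16.7 and 4.289 Mb in Col libraries 1 and 2. In F1 wild-type libraries 1 and 2 they held 5831 and 4061 peaks over 16.68 and 8.06 Mb. Fold enrichments per peak are the authors' own values.

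**Figure D5:**
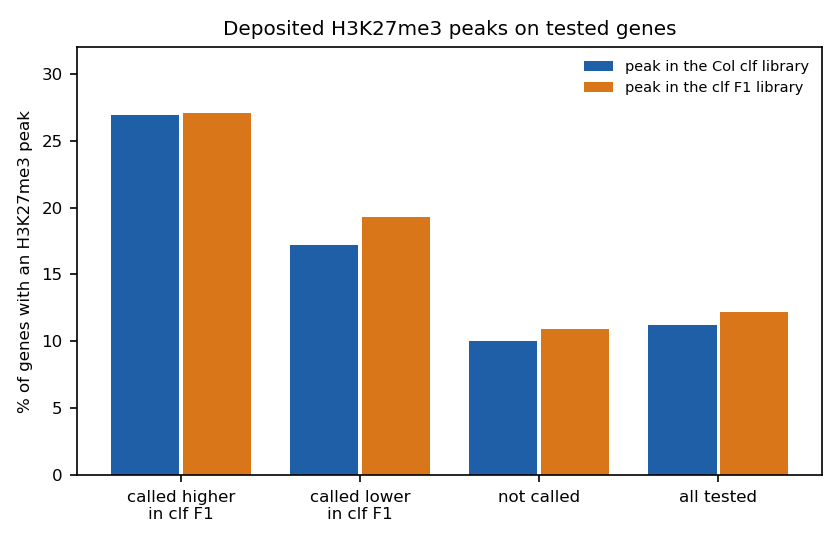
Share of tested genes (y axis, %) that overlap a deposited H3K27me3 peak by at least 1 base, for genes called higher (715), called lower (1132), not called (15300) and all tested, in the Col clf library (blue) and the clf F1 library (orange), 1 library each. Called-higher genes have the highest bars, 26.9% and 27.1%, and uncalled genes the lowest, 10% and 10.9%.

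FLC was among the genes with at least a 2-fold difference and a peak in 1 of the Col clf and clf F1 libraries. The wild-type libraries of the same genotype, whose second list was smaller, often disagreed at such genes. The second F1 wild-type library had no peak on any of the 12 named here. In Col clf a peak at chr5:3177114-3179772 (TAIR10, 4.3-fold enriched) covered 38.5% of the gene, and in clf F1 and C24 clf no deposited peak overlapped it. The wild types were mixed, with a peak on FLC in 1 of 2 Col libraries and 1 of 2 F1 libraries. AT5G53700, which was higher in clf F1, likewise had a peak on 51.3% of its length in Col clf and none in clf F1, with 87.1% covered in 1 Col wild-type library. AT2G16367 was covered to 100% in Col clf and not in clf F1, with 68.3% covered in 1 Col and 4.46% in 1 F1 wild-type library. AT3G46500 had a Col clf peak on 13% of its length and none in clf F1, with 100% covered in 1 Col and 30.2% in 1 F1 wild-type library. SADHU3-1 went the opposite way, with a peak at chr3:15813227-15814102 in clf F1 (84.5% of the element) and none in Col clf, where it was listed at 0 RPKM, and C24 clf was covered to 84.5% as well. AT5G54710, at 2.22, 2.26 and 2.58 RPKM in Col clf and 17.52, 12.76 and 19.46 RPKM in clf F1 (adjusted p = 1.5e-06 in limma), also had a peak in clf F1 and none in Col clf, on 35.8% of its length, and C24 clf had one on 37.3%.

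Among genes lower in clf F1, WRKY70 had a peak in clf F1 at chr3:20908873-20909875 (3.64-fold enriched, 52.4% of the gene) and none in Col clf. It was also covered to 100% in 1 Col wild-type library and to 89.7% in 1 F1 wild-type library. TCH3, a touch-induced calmodulin-like gene, was listed at 109.11, 86.39 and 133.70 RPKM in Col clf and at 53.35, 31.84 and 43.77 RPKM in clf F1 (adjusted p = 0.00075 in limma), with a clf F1 peak on 49.7% and an F1 wild-type peak on 54.4% of its length, and lost its call without the 3 libraries richest in ribosomal RNA. AT3G62530 fell from 256.71, 231.76 and 262.39 RPKM to 120.44, 100.17 and 100.26 RPKM (adjusted p = 1.1e-05) with a clf F1 peak on 87.8%, a C24 clf peak on 93.9% and an F1 wild-type peak on 93.1%, and AT2G40010 had peaks in clf F1 on 30.3% and in C24 clf on 27%. HR4 and AT3G46370 were lower in clf F1 and had a peak in Col clf, on 67.4% and 59.3% of their length, and none in clf F1. HR4 was also covered to 89.3% in 1 Col wild-type library, and AT3G46370 to 100% and 34.1% in the Col and to 100% in 1 of the F1 wild-type libraries. The genes with the largest changes did not all differ in the mark. Peaks covered AOP2, SEP3 and AP3 to 100% in both clf libraries, and ESP to 53.3% in Col clf and 53% in clf F1.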

How the data were processed

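mRNA of shoots was enriched with oligo(dT) beads, per the labels' protocols. RPKM values were deposited by the authors, 1 file per library, a unit read from the values. TopHat, Bowtie and TAIR10 are named in the submitters' processing notes, without version or role. The sources used here do not give how strand and multi-position reads were treated, so overlapping genes cannot be told apart. Per the file headers, the deposited peak lists give a count of tags, a score and a fold enrichment per peak, the authors' own values per library. Of 34133 lines per file, 1141 lines of 567 repeated IDs and 279 organelle genes were left out. Depth was estimated from values of up to 4 reads in genes of up to 500 bp, of which 50.9% to 72.2% lay within 4% of whole reads (median over trial depths at most 14.1%). No 2 mRNA libraries shared more than 0.994% identical values. Self-test: the fit was tested on simulated data.

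log2(RPKM + 1) of the 6 libraries entered a linear model in limma 3.58.1 (R 4.3.3, trended prior, no replicate block), with Benjamini-Hochberg adjustment over 17195 genes. No label says that replicates were grown apart, so the p-values cover only sample-to-sample spread, which may be technical. Replicate numbers come from the labels. Deviations of same-numbered libraries from their group means correlated at 0.44, 0.322 and 0.317, so the numbers were taken to pair the samples. The main fit leaves this pairing out, and it called 1851 genes where the block called 4099. Blocked values are given beside it for genes whose call they change, though not for every such gene. Genes named are CLF, the 14 largest called increases and decreases with libraries apart, up to 4 called and 2 uncalled members of each of 20 lists (425 genes), and up to 6 genes in each direction with a peak in 1 clf library, and others are marked as named after their values were seen. The comparison, its members and all lists were chosen with earlier results of these data known, so list counts are descriptions. List counts of the main fit stand beside the shares over all tested genes, 4.16% called higher and 6.6% called lower. Peaks were overlapped with gene spans of TAIR10.1, which matched 17147 of the tested genes. As a check of the positions, genes with a Col clf peak had a median of 0.0667 RPKM, against 3.73 RPKM when spans were moved by 10 kb. Bins of 1 Mb were not run.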

Additional observations from a re-analysis of the deposited data

How the results depend on the processing

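The count of called genes (1851, 716 higher and 1135 lower in limma) moved with the libraries and the block more than with the scaling. The replicate block gave 4099 (1425 higher, 2674 lower), and with quantile normalization, an alternative chosen after seeing the data, 4421 (2166 and 2255). Without the 3 libraries richest in ribosomal RNA it was 534 (308 and 226), where the lone clf F1 library is assumed to vary like the other groups. Leaving out 1 library in turn gave 1133 to 2133 genes, 516 to 612 higher and 617 to 1521 lower. Median-of-ratios scaling gave 1098 higher calls, and a filter of 5 RPKM gave 446. Peaks on at least 50% of the gene gave 20.1% and 20.4% of higher genes in Col clf and clf F1, and 10.2% and 11.5% of lower genes. The cause of these shifts was not tested.

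No named called gene changed sign in the alternatives run, but the balance of directions did, since median-of-ratios scaling gave more increases (1098) than decreases (1010), as did leaving out the 3 libraries richest in ribosomal RNA. Quantile normalization turned the sign of the median of the Polycomb (-0.01 to 0.05), clock (-0.05 to 0.02) and photosynthesis (0.03 to -0.01) lists. Some named genes, such as AT4G29200, SADHU3-1 and AT1G20390, reached 1 RPKM in 1 group alone. They entered the test through the group where they were high, so a kept call of theirs is no support. Of the 28 genes named by size, 24 kept their call in every alternative that tested them. LTI78, ACD6 and AT2G30766 lost it without the 3 libraries richest in ribosomal RNA (adjusted p = 0.084, 0.074 and 0.14 in limma), and AT5G49152 with no filter (0.07) and without Col clf replicate 3 (0.054). Of 114 named called genes, 92 kept their call without Col clf replicate 3 and 95 with no filter. All 114 kept it with the replicate block, which added calls among the uncalled genes. At the estimated depth, levels under 1 RPKM rest on few reads.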
